A study of Mus musculus with 6 samples.

Results

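The cells described here are droplet barcodes from mouse brain suspensions that held endothelial transcripts together with a transcript of an arterial gene. A barcode was kept with at least 500 UMIs (unique molecular identifiers, each counting 1 captured transcript), 300 or more genes and no more than 15% of its UMIs from mitochondrial genes. It was called endothelial when UMIs of at least 3 of 8 genes (Cldn5, Flt1, Adgrl4, Ptprb, Emcn, Ly6c1, Slco1a4 and Pecam1) and of fewer than 2 of 5 genes of other cells (P2ry12, Kl, Cd3e, Abcc9 and Col1a1) were present. An endothelial barcode was called arterial when it also held at least 1 UMI of Bmx, Gkn3 or Sema3g. This rule found 485 arterial barcodes, which were 4.71% of 10301 endothelial barcodes and 0.515% of the 94144 barcodes kept. The barcodes were thus chosen by the measured UMIs of these 16 genes, whose levels are given as description only.

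The study comprised 6 single-cell RNA libraries of dissociated brain cells in 3 groups of 2. The groups were wild type with vehicle, wild type with bilirubin, and a TRPM2 knockout with bilirubin, which the labels write as TRPM2 Mg KO without expanding Mg. Dose, duration, age, sex, brain region and the cells or promoter in which the knockout acts are not given in the sources used here, and no knockout group with vehicle was analysed here. A difference between the knockout and wild-type bilirubin groups therefore cannot be told apart from a difference the knockout has without bilirubin. Whether the 2 libraries of a group came from separate animals is not stated, and p-values then reflect the scatter among libraries, part of which may be technical.

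Arterial endothelial cells line the vessels that carry blood into the brain. Notch signalling maintains their identity, they make elastic and matrix proteins of the vessel wall, and like other brain endothelial cells they hold the blood-brain barrier. During systemic inflammation brain endothelium makes secreted acute-phase proteins such as lipocalin 2 and displays adhesion molecules for leukocytes. Bilirubin is the breakdown product of haem, and TRPM2 is a calcium-permeable cation channel that opens in oxidative stress.

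The arterial barcodes were unevenly spread over the libraries. The vehicle libraries held 25 and 42, the wild-type bilirubin libraries 156 and 15, and the knockout bilirubin libraries 187 and 60. Summed over these barcodes, the vehicle libraries held 39065 and 89092 UMIs, the wild-type bilirubin libraries 568717 and 43655, and the knockout libraries 721626 and 548736. The vehicle group thus rested on 128157 UMIs in all, against 1270362 in the knockout group, and a count of 0 in the vehicle group allows a level of up to 23.4 CPM (counts per 1000000 UMIs of the same barcodes). The median mitochondrial share was 0.475% to 0.836% in both vehicle libraries and wild-type bilirubin library 2, and 3.34% to 4.45% in the other 3. No arterial barcode sequence was shared between libraries, and 68 of the 485 were called doublets by Scrublet.

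The threshold was thin for most members. Of the 485 barcodes, 410 (84.5%) held a single UMI of the 3 arterial genes together and 42 held 2 or 3 of the genes. Bmx, a non-receptor tyrosine kinase, was detected in 193 barcodes, Gkn3, a secreted gastrokine, in 146, and Sema3g, a secreted semaphorin, in 192. Just inside the endothelial threshold lay 109 arterial barcodes with exactly 3 endothelial genes, and just outside it lay 215 barcodes with 2. A further 161 barcodes were kept out by a second gene of other cells, of which 122 came from knockout library 2. In that library 43 of 60 members (71.7%) held 1 such gene, against 36.0% to 49.2% in the other 5.

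The share of endothelial barcodes called arterial was 2.51% (95% exact binomial interval 1.63 to 3.68) and 2.94% (2.13 to 3.95) in the vehicle libraries. It was 4.68% (3.99 to 5.45) and 6.33% (3.59 to 10.2) in the wild-type bilirubin libraries, and 5.43% (4.70 to 6.24) and 6.97% (5.36 to 8.88) in the knockout libraries. These intervals cover counting error only. After every barcode was thinned to 1000 UMIs, leaving out 62 to 318 shallower endothelial barcodes a library, the shares were 1.55% and 1.53%, 2.04% and 2.57%, and 2.41% and 1.81%. The thinned share was higher by 0.769 percentage points in the wild-type bilirubin than in the vehicle libraries (exact two-sided permutation p = 0.333, the smallest that 2 against 2 libraries allow). The knockout libraries differed from the wild-type bilirubin libraries by -0.197 points (exact permutation p = 0.667) and from the vehicle libraries by 0.571 points (p = 0.333, the same exact permutation test).

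**Figure D1:**
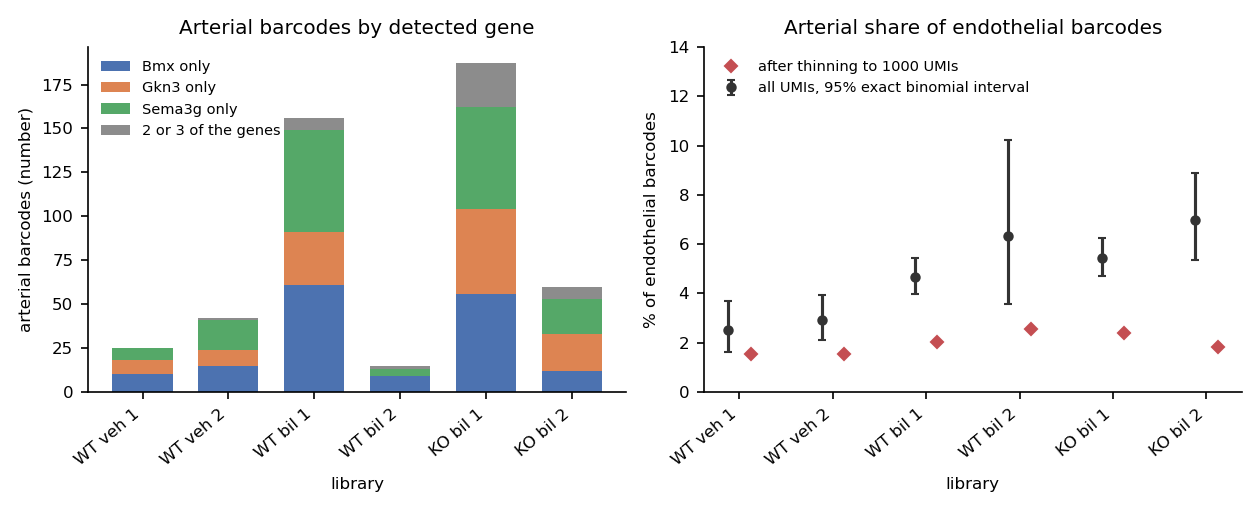
Left, number of arterial barcodes in each of the 6 libraries, split by the arterial gene detected. Right, arterial share of endothelial barcodes in percent, with all UMIs (dots, 95% exact binomial intervals) and after thinning to 1000 UMIs (diamonds); the unthinned shares run from 2.51% to 6.97% and the thinned ones from 1.53% to 2.57%.

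The arterial label was set against genes the rule had not used. Igfbp3, an insulin-like growth factor binding protein, averaged 50.7 CPM over the arterial barcodes of the 6 libraries and 2.79 CPM over the other endothelial barcodes. These means rested on 42 arterial and 86 other UMIs. Its log2 ratio (10 CPM added to each level) ran from 0.50 in wild-type bilirubin library 1 to 3.65 in library 2. Edn1, the vasoconstrictor endothelin 1, averaged 149 against 60.2 CPM, Alpl, alkaline phosphatase, 56.3 against 20.4 CPM, and the Notch ligand Jag2 70.0 against 37.2 CPM. These 4 genes were picked from those higher in the arterial barcodes of 6 of 6 libraries and are a description only. Of a list of 30 arterial identity genes, which holds Edn1 and Alpl, 7 were higher in 6 of 6 libraries (Edn1, Alpl, Stmn2, Ltbp4, Crip1, Arl15 and Slc6a6), and the list's median log2 ratio was 0.47. Of all 6725 genes with a mean of at least 20 CPM, 3.12% were higher in 6 of 6 libraries and the median was 0.01. The venous list of 17 genes had a median of -0.03 and the capillary list of 14 genes 0.10. The gap-junction genes of arteries were sparse: Gja4 was detected in 28 members, none of them in the vehicle libraries or wild-type bilirubin library 2, and Gja5 had 7 UMIs in all. The 14 genes of MHC class I presentation also lay above the background, with 7 higher in 6 of 6 libraries and a median log2 ratio of 0.47.

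Transcript content was also summed by the arterial gene detected. Summed over all libraries, the smooth muscle genes Acta2 and Tagln stood at 350.4 and 279 CPM in barcodes with Gkn3, at 314 and 269 CPM in those with Sema3g, and at 58.4 and 62.1 CPM in those with Bmx. Most of these Acta2 UMIs with Gkn3 (237 of 247) and Sema3g (223 of 240) came from the knockout libraries. In the wild-type bilirubin libraries Acta2 stood at 47.0 CPM with Gkn3, 73.8 with Sema3g and 57.7 with Bmx, and with vehicle at 95.1, 0 and 129 CPM, so the pooled order was not kept. The neutrophil gene S100a8 stood at 1221 CPM in barcodes with Bmx, at 63.8 CPM with Gkn3 and at 11.8 CPM with Sema3g. Lcn2 stood at 375 CPM with Bmx, 58.2 CPM with Gkn3 and 26.1 CPM with Sema3g. Of its 308 UMIs with Bmx 284 came from the wild-type bilirubin libraries, and in the knockout libraries it stood at 48.7 CPM with Bmx and 45.8 CPM with Gkn3. Mgp, matrix Gla protein, was highest with Gkn3, at 1160 CPM, against 801 CPM with Bmx and 621 CPM with Sema3g. Bmx is also known from myeloid cells, and 9 of the 12 members with UMIs of at least 3 of 10 neutrophil markers held it. These values pool barcodes of libraries that contribute unequally and carry no test.

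Trpm2, the targeted gene, was too sparse in these cells to check the genotype. The arterial barcodes held 0 and 0 Trpm2 UMIs in the vehicle libraries, 2 and 1 in the wild-type bilirubin libraries, and 3 and 0 in the knockout libraries. In barcodes with microglial markers, where the gene was best covered, it stood at 16.4 and 9.82 CPM with vehicle, 10.6 and 25.2 CPM in the wild-type bilirubin libraries, and 10.3 and 10.5 CPM in the knockout libraries. The labels do not state which part of the gene was deleted, and a 3' count outside it checks nothing.

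The first comparison set the wild-type bilirubin against the vehicle libraries. In arterial barcodes 17 of 5984 genes passed an adjusted p of 0.05, which is 0.284% of those tested, with 11 higher (0.184%) and 6 lower (0.1%) under bilirubin. With the other scaling of library sizes, by DESeq2's size factors, the split was 13 higher and 11 lower. The genes that rose were Lcn2, Scgb3a1 and Cebpb of the acute-phase and adhesion list, the neutrophil genes S100a8, S100a9 and Retnlg, the myeloid lysozyme Lyz2, and Anxa1, Krt18, Ankrd37 and Tmed3. The 6 genes that fell were the predicted gene Gm36264, Bc1, Nkain2, Ptprn2, Rbfox1 and Ccl5. Lcn2 was the only 1 of the 17 that passed in each of 6 fits leaving out 1 library. All p-values across genes come from edgeR's quasi-likelihood test over the 6 libraries with Benjamini-Hochberg adjustment. Fold changes are relative to a median over all tested genes of 0.10 (log2), which was 0.03 with the other scaling.

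Lcn2 encodes lipocalin 2, a secreted protein that binds bacterial siderophores. Its arterial UMIs numbered 0 and 1 in the vehicle libraries, 284 and 31 in the wild-type bilirubin libraries, and 15 and 33 in the knockout libraries. As levels these were 0 and 11.2 CPM, 499 and 710 CPM, and 20.8 and 60.1 CPM. Both wild-type bilirubin libraries stood above all 4 others, while 39.5% of all tested genes separated the group from vehicle and 24.2% from the knockout. The log2 fold change against vehicle was 6.15 (SE 0.94, adjusted p = 1.16e-07), and it ran from 5.55 to 10.62 when 1 library was left out, the latter without vehicle library 2, which holds the only vehicle UMI. The ratio of pooled UMIs was 65.9 with a counting interval of 11.7 to 2612. In the knockout libraries it was lower than in the wild-type bilirubin libraries (log2 fold change -3.62, SE 0.55, adjusted p = 8.4e-08). The knockout libraries did not pass against vehicle (log2 fold change 2.52, SE 1.21, adjusted p = 0.591).

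The UMIs of Lcn2 were concentrated in few barcodes. They came from 26 of 156 barcodes in wild-type bilirubin library 1 and from 2 of 15 in library 2, and the highest barcodes held 163 of 284 and 24 of 31. The first of these was 1 of the 12 members with neutrophil markers. Without those 12 barcodes the Lcn2 UMIs were 0 and 0, 74 and 31, and 6 and 25, and the call against vehicle kept an adjusted p of 1.3e-05. Over 18 alternative settings in which Lcn2 could be tested, the rise passed in 17, with adjusted p from 2.99e-08 to 0.0567, and was lost with DESeq2's Wald test. The fall in the knockout libraries passed in 18 of 18, with adjusted p from 9.26e-14 to 0.017. When barcodes with at least 3 neutrophil, T and NK cell, mural or fibroblast markers were all left out, the counts were 0 and 0, 30 and 31, and 4 and 0, below the filter for testing.

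The same direction was seen in the other endothelial barcodes and in barcodes with microglial markers. The microglial rule did not leave out endothelial or arterial barcodes, so these pools may share barcodes. Their overlap was not counted. Lcn2 stood at 6.36 and 20.1 CPM in the other endothelial barcodes with vehicle, at 153 and 258 CPM in the wild-type bilirubin libraries and at 25.3 and 46.7 CPM in the knockout libraries. In microglial-marker barcodes it stood at 7.03 and 7.57, 70.9 and 97.2, and 11.8 and 33.3 CPM. These barcodes were not free of endothelial RNA. Cldn5 itself limited entry to this pool, as a barcode had to hold fewer than 2 of Cldn5, Kl, Cd3e, Abcc9 and Col1a1. Its share is therefore constrained by the rule. After thinning to 1000 UMIs, Cldn5 was detected in 5.82% ± 0.32 (SD, n = 2) of them with vehicle. The shares were 9.01% ± 9.18 in the wild-type bilirubin and 21.6% ± 1.54 in the knockout libraries. Whether their Lcn2 was their own or came from other cells was not tested. At 1000 UMIs a barcode, Lcn2 was detected in 13.6% ± 5.88 (SD, n = 2) of arterial, 8.72% ± 0.365 of other endothelial and 3.58% ± 2.69 of microglial-marker barcodes of the wild-type bilirubin libraries. In library 1 the arterial and other endothelial shares were close, at 9.45% and 8.98%. In library 2, where 4 of 15 members were too shallow and left out, they were 17.8% and 8.46%. The vehicle shares were 1.02% ± 1.44, 0.872% ± 0.192 and 0.439% ± 0.137, and the knockout shares 2.43% ± 0.998, 2.44% ± 0.766 and 1.77% ± 0.68. Unthinned, the arterial shares were 15% ± 2.36 with bilirubin in wild type, 1.19% ± 1.68 with vehicle and 9.94% ± 9.52 in the knockout. The fall of Lcn2 in the knockout was larger in arterial than in other endothelial barcodes by -1.39 (log2, SE 0.35, adjusted p = 0.0337), a difference lost without the neutrophil-marker barcodes (-1.16, adjusted p = 0.865; over 16 settings 3.81e-07 to 1) and without wild-type bilirubin library 1 or either knockout library. The rise under bilirubin did not pass this test of a difference (2.77, SE 1.13, adjusted p = 0.999).

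Scgb3a1, a secretoglobin, had 1 and 0 arterial UMIs with vehicle, 66 and 9 in the wild-type bilirubin libraries, and 24 and 15 in the knockout libraries. The levels were 25.6 and 0, 116 and 206, and 33.3 and 27.3 CPM. The wild-type bilirubin libraries stood above the rest, and the log2 fold change against vehicle was 4.09 (SE 1.07, adjusted p = 0.0469). Its rise passed in 2 of 15 alternatives (adjusted p from 0.0391 to 1) and was lost when any 1 of the 6 libraries was left out, with fold changes from 2.56 (without vehicle library 2) to 8.66 (without vehicle library 1). The lower level in the knockout libraries did not pass (-2.06, SE 0.54, adjusted p = 0.0785). In other endothelial barcodes it stood at 13.4 and 5.94, 136 and 465, and 20.02 and 31.5 CPM.

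The sequences just upstream of Lcn2 and Scgb3a1 are shown because both genes were higher in the wild-type bilirubin libraries and encode secreted proteins. Each is the 250 bases before the gene's start in the RefSeq table for GRCm38.p6, read in the direction of transcription. Capitals mark a C/EBP-type match (TTGCNNAA) upstream of Lcn2 and a STAT-type match (TTCNNNGAA) upstream of Scgb3a1.
Lcn2, chr2:32387740-32387989, minus strand: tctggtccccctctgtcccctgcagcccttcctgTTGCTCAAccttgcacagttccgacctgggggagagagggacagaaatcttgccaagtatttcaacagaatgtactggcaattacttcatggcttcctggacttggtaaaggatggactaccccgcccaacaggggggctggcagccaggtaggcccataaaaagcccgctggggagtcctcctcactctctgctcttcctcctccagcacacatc
Scgb3a1, chr11:49663345-49663594, plus strand: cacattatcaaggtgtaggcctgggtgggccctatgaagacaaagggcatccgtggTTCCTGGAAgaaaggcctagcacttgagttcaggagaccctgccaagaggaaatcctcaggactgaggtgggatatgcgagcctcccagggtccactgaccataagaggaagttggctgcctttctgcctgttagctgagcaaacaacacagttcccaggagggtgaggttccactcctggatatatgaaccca
The first match lies 216 to 209 bases before the Lcn2 start and the second 194 to 186 bases before the Scgb3a1 start. On either strand, TTGCNNAA occurred in 9.55% and TTCNNNGAA in 7.18% of 27025 upstream sequences of this length. Of the other genes searched, Anxa1 held a C/EBP-type match, and Cebpb, Lrg1, Tmed3, Ankrd37, Krt18, Cytl1, Fbln5 and Bmp4 held none of the forms searched, which also included GGGANTTNCC (0.94% of sequences) and TATAAA (13%). The letters of the motifs were chosen after matches had been seen, and a match is a description of the sequence only.

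Cebpb, a basic leucine zipper transcription factor of the acute-phase response, had 0 and 0 arterial UMIs with vehicle, 61 and 2 in the wild-type bilirubin libraries, and 15 and 9 in the knockout libraries. With the vehicle group set at a floor of 3 counts, its pooled ratio in the wild-type bilirubin libraries was 4.39 (lower counting limit 1.44). It passed against vehicle (edgeR adjusted p = 0.0418). Without the neutrophil-marker barcodes its UMIs numbered 0 and 0, 44 and 2, and 7 and 9. The call was lost without vehicle library 1 (0.656), without vehicle library 2 (0.788) and without the neutrophil-marker barcodes (0.202), and over 9 alternatives the adjusted p ran from 0.0289 to 1. The difference between the knockout and wild-type bilirubin libraries was -2.20 (log2, SE 0.58, adjusted p = 0.0785). In the other endothelial barcodes, Cebpb was detected with vehicle, at 38.9 and 32.8 CPM, and stood at 86.8 and 48.8 CPM in the wild-type bilirubin and 12.8 and 13.5 CPM in the knockout libraries. Microglial-marker barcodes held more of it, at 83.3 and 68.5, 178 and 220, and 23.9 and 17.3 CPM.

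The acute-phase and adhesion list had 30 genes, of which 13 could be tested. In the wild-type bilirubin libraries 3 of the 13 rose and none fell, and the median log2 fold change was 1.74 (1.71 with genes at 0 in a group set at their bound), against 0.10 over all genes. Lrg1, a secreted leucine-rich glycoprotein, had 0 and 0 UMIs with vehicle, 18 and 9 in the wild-type bilirubin libraries, and 15 and 7 in the knockout libraries. It did not pass (edgeR adjusted p = 0.229). With vehicle at the floor of 3 counts, its ratio was 1.88 (lower counting limit 0.58). The adhesion genes did not pass either: Icam1 differed by 1.74 on the log2 scale (SE 1.08, adjusted p = 0.748) and Vcam1 by 0.19 (SE 0.67, adjusted p = 0.98). Socs3, a feedback inhibitor of cytokine signalling, stood at -0.24 (SE 1.01, adjusted p = 0.98). The endothelial selectins were near 0, with 0 Sele UMIs in 5 libraries and 8 in knockout library 2, and 3 Selp UMIs in all. This list was assembled with results of these libraries known, so its count is not independent evidence of a direction.

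**Figure D2:**
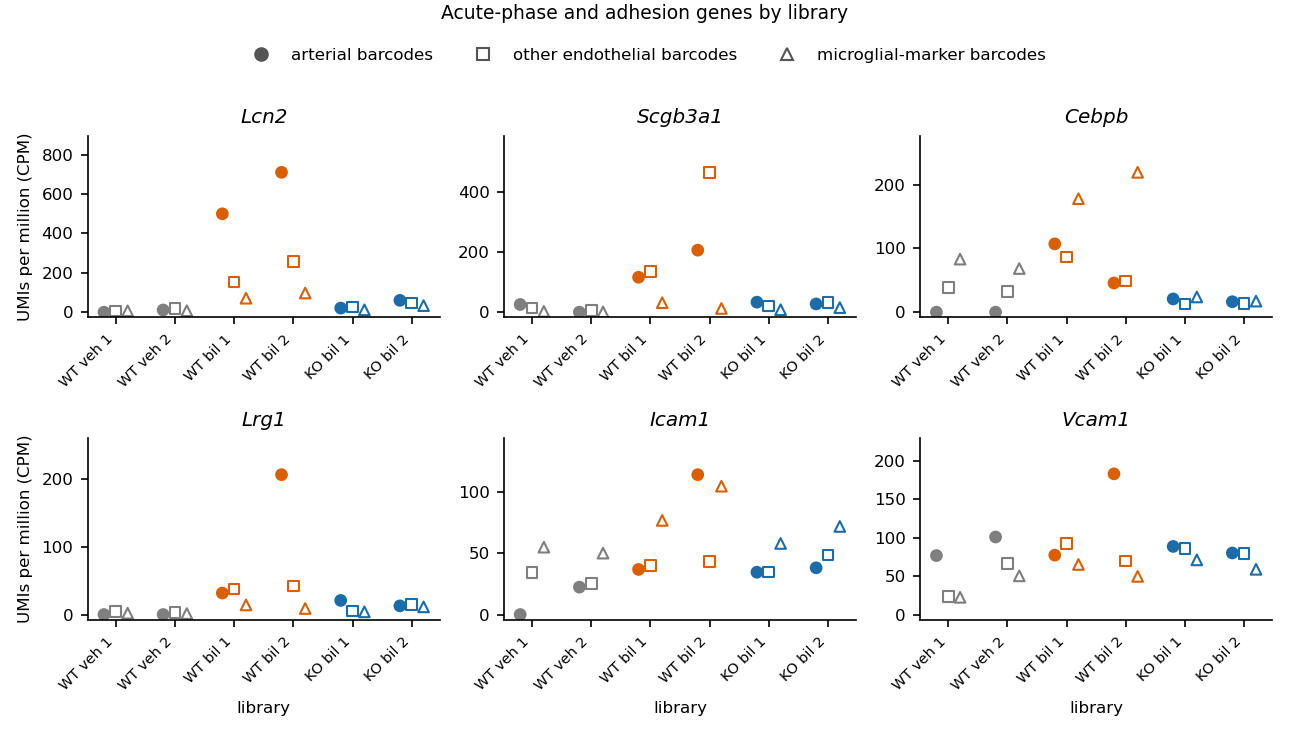
CPM (vertical axis, linear) in each library (horizontal axis) for 6 acute-phase and adhesion genes, in arterial barcodes (dots), other endothelial barcodes (squares) and microglial-marker barcodes (triangles). Arterial Lcn2 stands at 499 and 710 CPM in the wild-type bilirubin libraries and at or below 60.1 CPM in the other 4.

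In the arterial barcodes, neutrophil genes were high in wild-type bilirubin library 1 and not in library 2, through a few barcodes. Elsewhere library 2 held more of this RNA than library 1. The 10 neutrophil markers summed to 1534 CPM in library 1 and 6181 CPM in library 2 over the other endothelial barcodes. Over all kept barcodes they summed to 1195 and 4834 CPM. In the arterial barcodes they summed to 2 and 19 UMIs in the vehicle libraries, 4725 and 7 in the wild-type bilirubin libraries, and 1005 and 225 in the knockout libraries. As levels these were 51.2 and 213, 8308 and 160, and 1393 and 410 CPM. In wild-type bilirubin library 1, 5 of 156 barcodes held 98.0% of these UMIs, and in the knockout libraries 3 barcodes each held 95.1% and 80.0%. S100a8 rose by 6.82 (log2, SE 0.95, adjusted p = 2.94e-09) and S100a9 by 5.62 (SE 0.79, adjusted p = 2.94e-09), and without wild-type bilirubin library 1 both calls were lost (log2 2.87, adjusted p = 0.685, and 0.36, adjusted p = 0.939). S100a9 was also lost without vehicle library 1 (5.25, adjusted p = 0.119), Retnlg without wild-type bilirubin library 1, and Lyz2 without wild-type bilirubin library 1 or either vehicle library. Anxa1, annexin A1, which neutrophils and endothelial cells both make, had 0 and 0, 90 and 5, and 23 and 5 UMIs. Without the neutrophil-marker barcodes these were 0 and 0, 27 and 5, and 11 and 4, with the vehicle libraries still below both others. Anxa1 passed with bilirubin in wild type (edgeR adjusted p = 0.00207), with a ratio of 6.63 at the floor of 3 vehicle counts (lower counting limit 2.20). The call was lost without the neutrophil-marker barcodes (adjusted p = 0.345), and it passed in 9 of 15 alternatives. It was also lost without vehicle library 1, vehicle library 2 or wild-type bilirubin library 1.

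**Figure D3:**
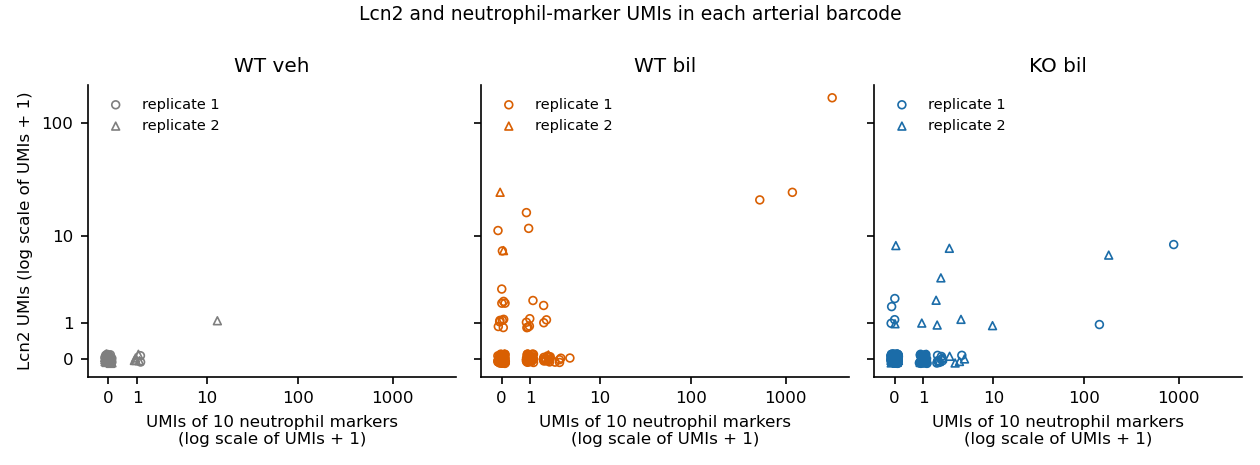
Lcn2 UMIs (vertical axis) against summed UMIs of 10 neutrophil markers (horizontal axis) for each arterial barcode, both on a log scale of UMIs + 1 with slight jitter, by group and replicate. The highest barcode, with 163 Lcn2 UMIs, also holds the most neutrophil-marker UMIs (2992), while the highest of wild-type bilirubin library 2 holds 24 Lcn2 UMIs and few of the others.

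Of the remaining genes that rose, Ankrd37, a small ankyrin-repeat protein induced in hypoxia, had 0 and 1, 73 and 8, and 90 and 85 arterial UMIs. The pooled ratio against vehicle was 17.0 (counting interval 2.96 to 678) in the wild-type bilirubin libraries and 17.7 (3.13 to 701) in the knockout libraries. It passed in both comparisons (adjusted p = 0.0399 and 0.0176), which share the vehicle libraries, and both calls were lost without vehicle library 1 (0.845 and 0.799) or 2 (0.718 and 0.793). The first was also lost without either wild-type bilirubin library and the second without knockout library 2. Over the alternatives the adjusted p ran from 0.0107 to 1 and from 0.00434 to 0.999. Its thinned share of arterial barcodes was 0.377% ± 0.533 (SD, n = 2) with vehicle, 10.9% ± 0.717 in the wild-type bilirubin and 10.5% ± 1.1 in the knockout libraries. The other endothelial barcodes with vehicle stood between, at 4.39% ± 1.81. Tmed3, a cargo receptor of the early secretory pathway, rose by 3.52 (SE 0.90, adjusted p = 0.0399) from 0 and 2 to 115 and 5 UMIs. Krt18, a keratin, had 0 and 0, 47 and 5, and 66 and 34 UMIs, and passed in the wild-type bilirubin libraries (edgeR adjusted p = 0.0418). With vehicle at the floor of 3 counts, its ratio there was 3.63 (lower counting limit 1.17). Tmed3 and Krt18 were also lost without vehicle library 1 (0.942 and 0.656) or 2 (0.673 and 0.788), Tmed3 without wild-type bilirubin library 1 too, and Krt18 without any 1 of the 6. Over their alternatives the adjusted p ran from 0.00996 to 1 and from 0.0383 to 1.

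Gm36264 fell by 3.52 on the log2 scale (SE 0.62, adjusted p = 1.83e-05), from 1075 and 382 CPM with vehicle to 54.5 and 68.7 CPM, and lost its call without vehicle library 1. Bc1, a non-coding RNA of neuronal dendrites, stood at 14924 and 4030 CPM with vehicle, 869 and 1031 CPM in the wild-type bilirubin libraries, and 1576 and 3198 CPM in the knockout libraries. The vehicle libraries were above all others, and the log2 fold change was -3.32 (SE 0.70, adjusted p = 0.00168); it was lost without vehicle library 1 (-2.22, adjusted p = 0.942), vehicle library 2 (-3.92, 0.15) or wild-type bilirubin library 2 (-3.14, 0.551), and ran from 6.92e-07 to 0.942 over 18 alternatives. In the other endothelial barcodes Bc1 stood at 15673 and 3801, 1118 and 925, and 1971 and 3953 CPM, and in microglial-marker barcodes at 13585 and 3274, 1075 and 790, and 1999 and 3666 CPM. Its level was thus alike in all 3 kinds of barcode of a library, though the microglial-marker pool may share barcodes with the others. Ptprn2 (-3.12, adjusted p = 0.0162), Nkain2 (-2.91) and Rbfox1 (-2.39), all neuronal genes, fell as well. Ptprn2 was lost when any 1 of the 6 libraries was left out (0.0084 to 0.585 over its alternatives), Nkain2 without vehicle library 1 or wild-type bilirubin library 2, and Rbfox1 without any 1 of the 4 wild-type libraries. Of 14 neuronal markers, 11 could be tested, 1 fell and the median was -1.60. In other marker lists, medians were -0.34 for astrocytes, -0.85 for oligodendrocytes, -0.15 for microglia and macrophages (Lyz2 rose), -2.22 for T and NK cells (Ccl5 fell), -2.17 for erythroid cells, 1.03 for choroid plexus, 1.39 for ependymal cells, 0.62 for mural cells and 0.86 for fibroblasts. The venous list had a median of 1.07, with Lcn2 as its called gene. The neuronal list summed to 17868 and 6039 CPM in the vehicle, 1604 and 1672 in the wild-type bilirubin, and 2625 and 3767 CPM in the knockout libraries. In the same order, the choroid plexus list summed to 16716 and 45818, 63689 and 69064, and 33433 and 52240 CPM. The erythroid list summed to 4710 and 35705, 7464 and 596, and 15623 and 709 CPM. The part of RNA from other cells in these results was not tested.

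No other list held more than 1 called gene under bilirubin, though several lay mostly above 0. Above 0 were 19 of 19 tested genes for blood-brain barrier transport, 19 of 20 for junctions and 16 of 17 immediate-early genes. For Notch and BMP/TGF-beta signalling they were 16 of 18, against 54.9% of all tested genes. The interferon and glucocorticoid lists had 5 of 9 each and the arterial identity list 13 of 21. The members also differed in the rule's own genes. The median number of the 8 endothelial genes detected, unthinned, was 3 and 4 with vehicle, 6 and 7 in the wild-type bilirubin and 6 and 6 in the knockout libraries. At 1000 UMIs a barcode, Cldn5 was detected in 46.3% ± 0.863 (SD, n = 2), 59.7% ± 5.02 and 60.6% ± 6.75 of members. Whether this difference bears on the lists was not tested. Of the 30 arterial identity genes, 21 could be tested, none passed, and the median log2 fold change was 0.26. The lists for blood-brain barrier transport (19 tested), capillary identity (14), immediate-early genes (17) and hypoxia and glycolysis (13) had medians of 1.22, 1.14, 1.28 and 1.00, with 1 called gene, Ankrd37 in the last. Slc2a1, the glucose transporter of the barrier, had 179 and 146, 315 and 893, and 303 and 175 CPM and did not pass (1.74, SE 0.60, adjusted p = 0.308). The immediate-early gene Ier3 stood at 76.8 and 168, 733 and 641, and 534 and 503 CPM, just outside the threshold (2.38, SE 0.63, adjusted p = 0.0502). Junction genes (20 tested, median 0.67), Notch and BMP/TGF-beta signalling (18, 0.53), shear stress response (13, 0.54), vasomotor signalling (9, 0.67), MHC class I (9, 0.42), interferon response (9, 0.10), glucocorticoid response (9, 0.05) and TRP channels (10, 0.25) held no called gene. Among the 10 tested genes of haem breakdown and NRF2 (median 0.71), Hmox1, haem oxygenase 1, had 0 and 0, 16 and 3, and 32 and 16 UMIs. It did not pass (edgeR adjusted p = 0.471). With vehicle at the floor of 3 counts, its ratio was 1.33 (lower counting limit 0.39). The depth limits what these counts say. On simulated data with these library sizes, 15.9% of 88 tested genes changed 4-fold were recovered in this comparison. Of 92 tested genes changed 16-fold, 72.8% were recovered. The rest of the 100 genes changed at each size fell below the low-count filter. The simulation gave all genes 1 dispersion of 0.0992 and did not model UMIs gathered in single barcodes, so these shares may be too high.

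The second comparison set the knockout bilirubin against the wild-type bilirubin libraries. Of 5984 genes, 8 passed (0.134%), with 7 lower (0.117%) and 1, the predicted gene Gm11290, higher (0.0167%) in the knockout. The 7 lower genes were Lcn2, described above, the neutrophil genes Camp, S100a8 and Retnlg, Anxa1, and the secreted proteins Cytl1 and Fbln5. Of the 8, Lcn2 and Cytl1 passed in each of the 6 fits that left out 1 library. Anxa1 was lost without knockout library 2 (-2.17, adjusted p = 1) or wild-type bilirubin library 1 (-2.19, 0.871; with S100a8 turning to 1.33 and Retnlg to 8.34 on the log2 scale there). In the simulation 39.8% of tested genes with 4-fold and 95.5% of those with 16-fold changes were recovered here.

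Cytl1, a small secreted cytokine-like protein, had 1 and 11 arterial UMIs with vehicle, 15 and 15 in the wild-type bilirubin libraries, and 0 and 1 in the knockout libraries. The levels were 25.6 and 123, 26.4 and 344, and 0 and 1.82 CPM, so that both knockout libraries lay below all 4 others. The log2 fold change was -6.28 (SE 0.95, adjusted p = 8.4e-08) against the wild-type bilirubin and -6.11 (SE 1.04, adjusted p = 1.37e-05) against the vehicle libraries, which share the knockout libraries. The pooled ratio of the wild-type bilirubin to the knockout group was 62.2, with a counting interval of 10.3 to 2539. The UMIs lay in 1 and 5, 3 and 1, and 0 and 1 barcodes, and all 15 of wild-type bilirubin library 2 came from a single barcode. Against the wild-type bilirubin group the fall passed in 14 of 15 alternatives (lost with DESeq2, adjusted p = 1; lowest 2e-08), but it could not be tested once each library's highest barcode was left out. Against vehicle it was lost without vehicle library 2 (-4.25, adjusted p = 0.793; 4.7e-06 to 0.999 over 14 alternatives). Other endothelial barcodes held 0.86 to 3.96 CPM in all 6 libraries.

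Fbln5, fibulin 5, an organiser of elastic fibres, had 2 and 5 UMIs with vehicle, 22 and 3 in the wild-type bilirubin libraries, and 4 and 0 in the knockout libraries. At 51.2 and 56.1, 38.7 and 68.7, and 5.54 and 0 CPM, the knockout libraries were again below the rest. The log2 fold change against the wild-type bilirubin group was -3.62 (SE 0.91, adjusted p = 0.0485), and it passed in 6 of 13 alternatives, with adjusted p from 0.00908 to 1. Eln, elastin itself, had 4 and 7, 12 and 3, and 4 and 2 UMIs, or 102 and 78.6, 21.1 and 68.7, and 5.54 and 3.64 CPM. It fell in the knockout against the vehicle libraries by 3.97 on the log2 scale (SE 0.95, adjusted p = 0.0176), and was lost without vehicle library 1 (0.352) or 2 (0.793; lowest over 13 alternatives 0.0111). Bmp4, a bone morphogenetic protein, had 0 and 6, 24 and 4, and 4 and 3 UMIs and did not pass against the wild-type bilirubin group (-3.04, SE 0.80, adjusted p = 0.0785).

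Mgp, a secreted matrix protein that inhibits calcification and binds bone morphogenetic proteins, was better counted than Cytl1, Fbln5 and Eln. Its arterial UMIs numbered 42 and 132 with vehicle, 671 and 147 in the wild-type bilirubin libraries, and 281 and 339 in the knockout libraries, in 9 to 108 barcodes a library. The levels were 1075 and 1482, 1180 and 3367, and 389 and 618 CPM, with the knockout libraries below the other 4. Of all tested genes, 24.2% did not overlap between the knockout and wild-type bilirubin libraries, and 38.9% between the knockout and vehicle libraries. In the other endothelial barcodes the order for Mgp was not the same, at 713 and 590, 593 and 348, and 468 and 904 CPM. Within arterial barcodes alone the difference between knockout and wild-type bilirubin did not pass (-1.83, adjusted p = 0.471) and passed in 2 of 19 alternatives (0.0101 to 1). The knockout difference was lower in arterial than in other endothelial barcodes of the same libraries by 2.23 on the log2 scale, as the interaction of cell pool and group (-2.23, SE 0.25, adjusted p = 2.96e-15).

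This interaction of Mgp passed in 15 of 16 alternatives, with values from -3.28 without wild-type bilirubin library 1 to -1.33 without wild-type bilirubin library 2. It was lost when 2 UMIs of the arterial genes were required (-1.59, adjusted p = 1; lowest adjusted p 6.76e-28), which left 75 barcodes. The bilirubin difference of Mgp was higher in arterial than in other endothelial barcodes by 1.12 (SE 0.27, adjusted p = 0.0365) and passed in 5 of 16 alternatives (1.15e-09 to 1). It was lost without vehicle library 1 (0.75, adjusted p = 0.994) and without wild-type bilirubin library 2 (0.25, 0.966). At 1000 UMIs a barcode, Mgp was detected in 47.2% ± 2.75 (SD, n = 2) of arterial barcodes with vehicle, 44.8% ± 4.49 in the wild-type bilirubin and 30.6% ± 5.59 in the knockout libraries. In other endothelial barcodes the shares were 39.0% ± 2.52, 31.7% ± 12.2 and 32.7% ± 7.95, and in microglial-marker barcodes 34.7% ± 1.57, 30.6% ± 11.7 and 29.3% ± 3.33. Arterial and microglial-marker barcodes were close in the knockout libraries and further apart in the other groups.

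**Figure D4:**
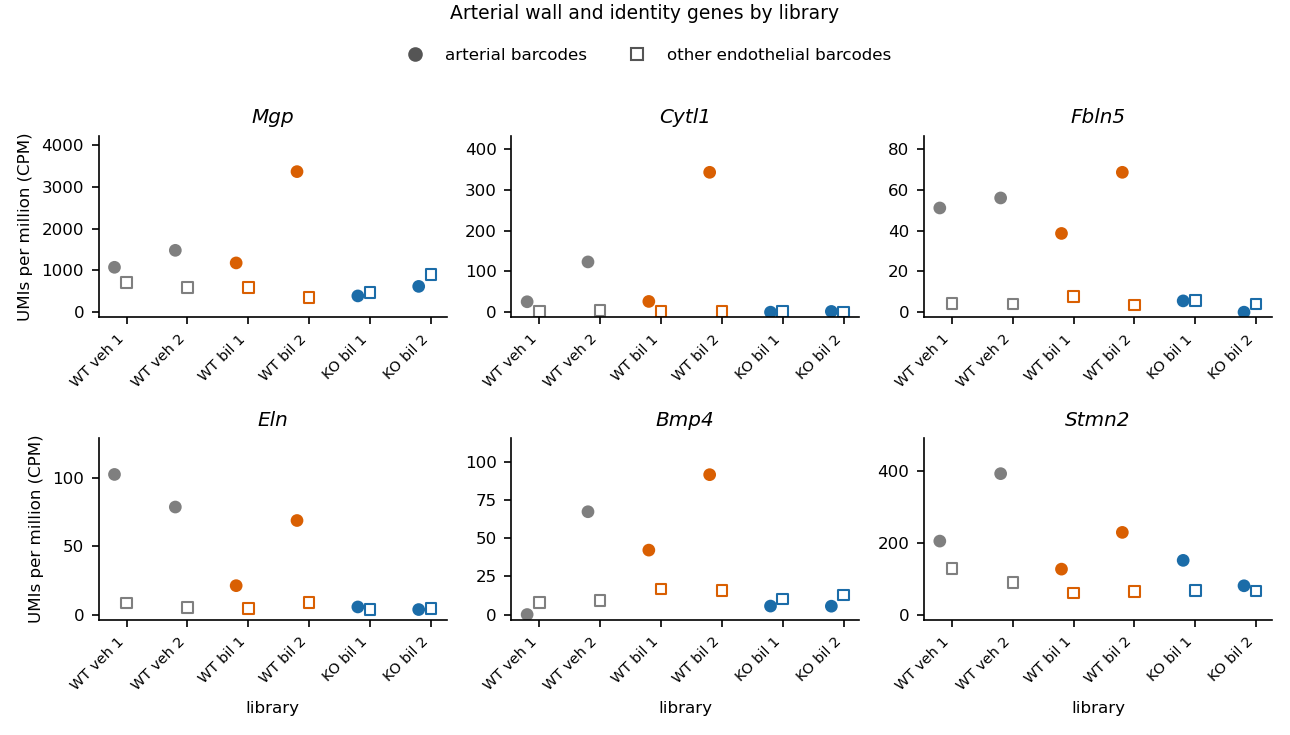
CPM (vertical axis, linear) in each library (horizontal axis) for 6 arterial wall and identity genes in arterial (dots) and other endothelial barcodes (squares). For Mgp, Cytl1 and Fbln5 the dots of both knockout libraries, at 389 and 618, 0 and 1.82, and 5.54 and 0 CPM, lie below the dots of the other 4. The knockout and wild-type bilirubin libraries did not overlap for 24.2% of all tested genes.

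Set beside the other endothelial barcodes of the same library, Fbln5 had log2 ratios (with 10 CPM added to each level) of 2.10 and 2.24 with vehicle, 1.46 and 2.55 in the wild-type bilirubin libraries, and -0.02 and -0.49 in the knockout libraries. Eln had 2.60 and 2.55, 1.13 and 2.07, and 0.19 and -0.10, and Mgp 0.59 and 1.31, 0.98 and 3.24, and -0.26 and -0.54. For these genes the ratio was above 0 in the 4 wild-type libraries, and in the knockout libraries it was below 0 in both for Fbln5 and Mgp and on either side of 0 for Eln. The interaction was called for Mgp and not for Fbln5 (-3.15, adjusted p = 0.249), and the pattern was picked out after its values were seen. Over the 30 arterial identity genes, 22 had ratios above 0 in both knockout libraries and 3 (Fbln5, Mgp and Bmp4) below 0 in both. The counts were 13 and 3 for the vehicle and 18 and 0 for the wild-type bilirubin libraries. The median log2 ratio of the list ranked the groups differently, at 0.32 in the knockout, 0.60 in the vehicle and 0.77 in the wild-type bilirubin libraries. Of the list, 9 and 3 genes had no arterial UMI with vehicle, 0 and 7 in the wild-type bilirubin and 0 and 1 in the knockout libraries. The counts therefore do not show how well arterial identity was kept in a group. Of the 22, Alpl had ratios of 1.47 and 0.67 in the knockout libraries, Edn1 1.24 and 0.38, and Stmn2 1.05 and 0.25. In knockout library 2 the members had a median of 7164.5 UMIs, against 2585 in its other endothelial barcodes. There 30 of 60 held at least 3 mural and 14 at least 3 fibroblast markers, against 25 and 8 of 187 in knockout library 1 and 21 and 6 of 156 in wild-type bilirubin library 1. Without the barcodes holding 3 or more neutrophil, T and NK cell, mural or fibroblast markers, Mgp stood at 1215 and 1328, 786 and 2458, and 251 and 367 CPM, and its interaction was -2.05 (adjusted p = 2.14e-05). Fbln5 then had 2 and 3, 11 and 3, and 3 and 0 UMIs, and Cytl1 1 and 9, 7 and 15, and 0 and 0. The mural marker list summed to 358 and 438, 726 and 252, and 1293 and 621 CPM in the arterial barcodes, and the fibroblast list to 154 and 494, 587 and 710, and 491 and 532 CPM.

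Over the fixed lists, the knockout comparison showed few calls. Of the 21 tested arterial identity genes 1 fell (Fbln5), with a median log2 fold change of -0.27 against 0.07 over all genes. Of the 13 tested acute-phase and adhesion genes 1 fell (Lcn2), with a median of -0.35, and the medians were -0.28 for blood-brain barrier transport, -0.35 for MHC class I, -0.15 for Notch and BMP/TGF-beta signalling and -0.14 for TRP channels, with no call. Of 4 tested neutrophil markers 3 fell. The libraries of the 2 groups did not overlap for 24.2% of all tested genes, and for 39.5% in the comparison of wild-type bilirubin with vehicle. The separations of Lcn2, Scgb3a1, Lrg1, Slc2a1, Bc1, Cytl1, Fbln5 and Mgp are to be read against these shares.

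The third comparison, of the knockout bilirubin with the vehicle libraries, shares libraries with both others. It called 15 genes (0.251%), 8 higher (0.134%) and 7 lower (0.117%), and 7 higher and 10 lower with DESeq2's size factors. The lower genes were Cytl1, Eln, the neutrophil gene Camp, the T-cell chemokine Ccl5, and the neuronal genes Dpp10, Negr1 and Ptprn2. The higher ones were Ankrd37 and Krt18, S100a8, S100a9 and Retnlg, the ependymal gene Ccdc153 and the mitochondrial genes mt-Atp8 and mt-Nd2. Of 48 Ccl5 UMIs in vehicle library 1, 43 were in 1 barcode, and the call was lost without that library. None of the 15 calls passed in all 6 fits that left out 1 library. No acute-phase gene passed, and that list's median was 1.39, or 0.20 with genes at 0 in a group set at their bound. The libraries of the 2 groups did not overlap for 38.9% of tested genes.

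The difference between arterial and other endothelial responses was tested for 10021 genes. For bilirubin 7 passed (0.0699%), namely Mgp, the neutrophil genes S100a8, S100a9, Retnlg and Ngp, and Hbb-bs higher (0.0599%), and Ccl5 lower (0.00998%). For the knockout 21 passed (0.21%), with 3 higher (0.0299%, among them Acta2 and Tagln) and 18 lower (0.18%) in the arterial barcodes. Beside Mgp and Lcn2, the 18 were Ptgis (prostacyclin synthase, -3.60), Adamtsl3 (-4.17), Prg4 (lubricin, -2.54), Efemp1 (-2.39), Rspo3 (-2.43), Igfbp6 (-1.71), Ccn3 (-1.82), Anxa1 (-1.92), Emp3 (-1.68), Slc26a2 (-2.25), the cytokine genes Cxcl2 (-4.86) and Il1b (-2.08), the neutrophil genes Retnlg (-1.58) and Ngp (-2.67), and the globin genes Hbb-bt (-1.93) and Hbb-bs (-0.81). Of the 20 named here, Mgp alone passed in each of the 6 fits leaving out 1 library. Ptgis, Adamtsl3, Efemp1, Rspo3, Igfbp6 and Ccn3 were lost without knockout library 1, knockout library 2 or wild-type bilirubin library 1, and Acta2, Tagln and Prg4 without knockout library 1 or wild-type bilirubin library 1. Without wild-type bilirubin library 1 there were 16 higher and 2 lower calls, 3 of them among the 21 called with all libraries. Single barcodes weighed heavily in others: 176 of 221 Acta2 and 118 of 181 Tagln UMIs of knockout library 1 lay in 1 barcode each. The simulation recovered 51.0% (bilirubin) and 79.0% (knockout) of 16-fold, but 3.03% and 11% of 4-fold, differences.

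**Figure D5:**
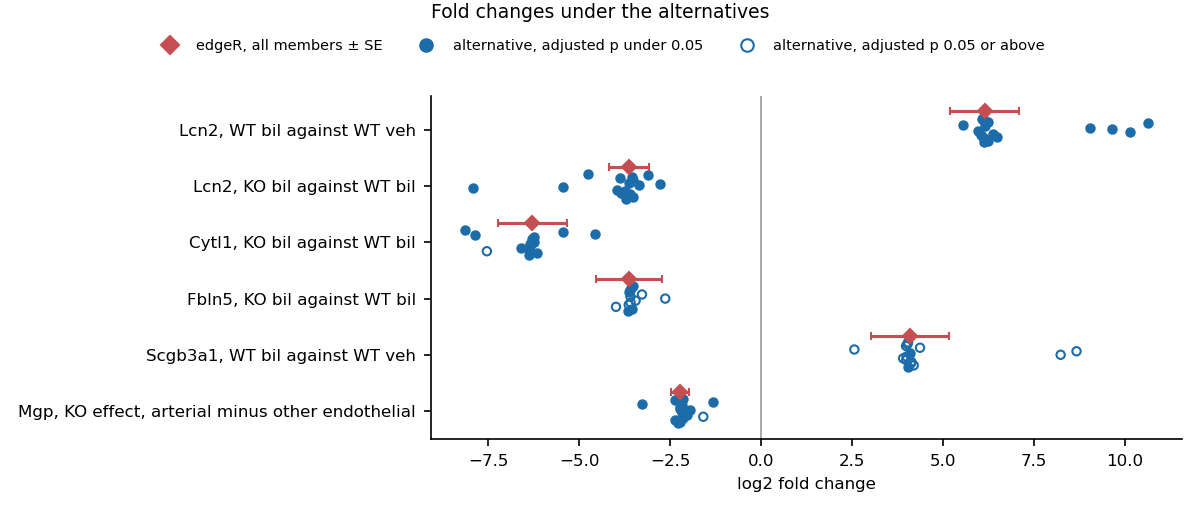
Log2 fold change (horizontal axis) of 6 results, as fitted over all arterial barcodes (diamond, with SE) and under each alternative that could be fitted (dots, filled where the adjusted p is under 0.05). Lcn2 keeps its sign in both comparisons, with -2.78 as the smallest fall in the knockout, and Mgp runs from -3.28 to -1.33.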

How the data were processed

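The authors deposited UMI counts per gene and barcode as 10x matrices. Per the submitters' processing notes they used Cell Ranger 8.0.0 and Scanpy 1.9.6 with GRCm39 and mm10, while the file headers name Cell Ranger 9.0.1; the build of the counts is therefore unclear and no coordinates were taken from them. The members and the 27 gene lists were chosen with earlier results of these data known. Deposited barcodes numbered 95014 in 6 libraries (8677 to 24309 in 5 of them, 4137 in the smallest), and 33696 genes were listed. Barcodes that passed the filters were summed per library and cell pool, and the sums were fitted in 1 edgeR 4.0.16 quasi-likelihood model (TMM, filterByExpr, R 4.3.3) with 3 residual degrees of freedom. Benjamini-Hochberg adjustment ran over tested genes outside the 16 rule genes, with a threshold of 0.05. Differences between arterial and other endothelial responses were fitted over 12 sums with library as block. Doublets were called with Scrublet (scanpy 1.11.5) and left out only as an alternative. CPM is UMIs per 1000000 UMIs of the pool, without TMM scaling. Microglial-marker barcodes held at least 3 of 8 microglial genes and fewer than 2 of Cldn5, Kl, Cd3e, Abcc9 and Col1a1. Barcodes that also met the endothelial rule were not left out of them. Where a group held 0 UMIs, the bound is the ratio with that group set at a floor of 3 counts, which is not a lower limit. Counting intervals and limits are at 95% and cover counting error only.

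Named genes were the 10 highest and 10 lowest fold changes of called genes that averaged at least 5 CPM and no overlap between the groups, filled up to 16 by smallest p, and 5 and 5 for each difference between cell pools. Added to these were 2 genes of each list by smallest p and 10 genes chosen with earlier results known (Trpm2, Scgb3a1, Lrg1, Lcn2, Cebpb, Gja4, Gja5, Socs3, Icam1 and Vcam1). For arterial against other endothelial barcodes they were the 15 highest and 8 lowest median ratios of 1 direction in 6 of 6 libraries with at least 20 CPM, of which only those with a known role are described. Efemp1, Igfbp6, Emp3, Il1b, Slc26a2, Gm11290, Gm36264, Hbb-bs, Hbb-bt, Sele, Selp, mt-Atp8, mt-Nd2, Arl15, Crip1 and Slc6a6 fall outside this rule and were named after their values were seen. Alternatives were DESeq2 1.42.0 scaling and Wald test, no low-count filter, only the libraries compared, stricter barcode filters and marker rules, doublets removed, a replicate block, and each library left out. Alternatives chosen after seeing the data left out barcodes with markers of other cells, or each gene's highest barcode. The test was checked on simulated counts with 100 genes changed per fold size and 1 dispersion for all genes. Recovered shares are of the changed genes that passed the low-count filter. The values of 1 called gene are not reported here.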

Additional observations from a re-analysis of the deposited data

Results flagged for a closer look

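Each result here is a difference between the arterial and the other endothelial response to the same contrast, tested by an interaction term. For bilirubin against vehicle, the log2 difference was 1.12 for Mgp (adjusted p = 0.0365), 2.62 for S100a9 (0.00161), 3.91 for S100a8 (0.0365), 4.06 for Ngp (0.0365), 12.74 for Retnlg (8.12e-09) and -1.84 for Ccl5 (0.00264), from edgeR with Benjamini-Hochberg adjustment. In wild-type bilirubin library 1, 692 of 698 arterial Ngp UMIs were in 1 barcode. For the knockout against wild type under bilirubin, the difference was -2.23 for Mgp (2.96e-15), -2.67 for Ngp (0.0337), -1.58 for Retnlg (0.00128), -1.39 for Lcn2 (0.0337), 1.64 for Tagln (0.0151) and 2.36 for Acta2 (3.68e-06). It was -4.86 for Cxcl2 (1.65e-17), -4.17 for Adamtsl3 (0.0263), -3.60 for Ptgis (0.0144) and -2.54 for Prg4 (0.00028). All 70 Cxcl2 UMIs of wild-type bilirubin library 1 were in 2 barcodes with 35 each.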

How the results depend on the processing

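Lcn2 in the first 2 comparisons, Cytl1 in the second and the Mgp difference for the knockout kept their calls whichever library was left out; counts of calls moved widely. For wild-type bilirubin against vehicle the 17 calls became 9 with no low-count filter, 2 with DESeq2, 1 with only the 4 libraries compared, 41 without doublets, 6 with 2 arterial UMIs required, 3 with no excluding marker, 9 without neutrophil-marker barcodes and 4 without barcodes of other cell types. For knockout against wild-type bilirubin the 8 became, in that order without the doublet setting, 15, 1, 3, 4, 1, 3 and 0 (34 at unadjusted p under 0.05), and 4 without each gene's highest barcode. For knockout against vehicle the 15 became 6 with no filter, 0 with DESeq2 (176 unadjusted), 4 with 2 UMIs, 0 with no excluding marker (68), 0 without other cell types (148), 0 without the highest barcode (395), and 9 when limited to genes enriched over the whole library. The 7 differences for bilirubin became 4 with no filter, 0 with 2 UMIs (176), 1 with no excluding marker, 2 without neutrophil-marker barcodes, 0 without other cell types (287) and 1 without the highest barcode. The 21 for the knockout became 10, 4, 2, 7 and 12 with 2 UMIs, no excluding marker, no other cell types, no highest barcode and genes enriched over the whole library. Leaving out 1 library gave 4 to 33, 10 to 17, 1 to 56, 1 to 7 and 5 to 27 calls in these 5 results. The causes were not tested.

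The arterial share difference of 0.769 points between bilirubin and vehicle became 2.85 at 2000 UMIs, 2.78 unthinned, 1.16 with 4 endothelial markers and 0.354 without doublets (0.502 to 1.04 leaving out 1 library). For knockout against wild-type bilirubin it was -1.01 at 2000 UMIs and 0.693 unthinned (-0.496 to 0.101), and against vehicle 1.84 and 3.48 (0.273 to 0.870).

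Signs turned without wild-type bilirubin library 1, and over all fits leaving out 1 library the ranges were as follows. Retnlg was 0.0 there in the first comparison and ran from -3.82 to 8.34 in the second, and S100a8 from -3.45 to 1.33 in the second. The bilirubin differences ran from -3.25 to 4.81 for S100a9, -1.12 to 13.72 for Retnlg, -1.47 to 7.84 for S100a8 and -2.42 to 7.07 for Ngp. The knockout differences ran from -5.01 to 5.50 for Cxcl2, -1.66 to 2.55 for Tagln and -6.66 to 3.91 for Ngp. Camp in the knockout against vehicle ran from -5.39 to 3.49, the latter without vehicle library 2. Without neutrophil-marker barcodes S100a9 became -0.0069 and Cxcl2 7.43. Ccl5 became 0.69 with no excluding marker, 1.33 without other cell types and 0.17 without the highest barcode, where Ngp became 1.69. With 2 UMIs Prg4 became 0.26.

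The deviations of same-numbered libraries had correlations of -0.013, -0.0034 and -0.071 over 5997 genes. With as few as 39065 arterial UMIs in a library, counting noise can hide a shared deviation. These values therefore cannot decide whether the numbers pair libraries. With a replicate block the 3 comparisons called 12, 4 and 8 genes. Vehicle depth limits all comparisons with that group.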
